A study of Homo sapiens with 21 samples.

Results

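Proteasome subunit genes were followed through 8 h (480 min) of epidermal growth factor (EGF) treatment in MCF10A cells, a non-tumorigenic human breast epithelial line. The genes were taken from the array annotation as every symbol made of PSMA, PSMB, PSMC, PSMD or PSME and a number, without the interferon-inducible PSMB8 and PSMB9 and without pseudogenes. This gave 41 of 19497 annotated symbols. The symbol rule uses no measured values, but the gene family was chosen with earlier results of these data known. Of these, 40 passed the filter on dim probesets and were among the 16614 genes tested; PSMA8, a testis form of an alpha subunit, kept 2 of its 12 probesets and was not measured.

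Before treatment the low-passage cells went without EGF for 24 h and were then starved at 1% horse serum for 24 h. EGF was given at 20 ng/ml. RNA was taken at 0 min (starved, untreated) and 20, 40, 60, 120, 240 and 480 min after EGF, from biological triplicates called A, B and C at each of the 7 times, on 21 exon arrays. All groups share the line, the starvation and the medium. No array of starved cells without EGF was present at the later times, so EGF and time in culture cannot be told apart. The cells are 1 established line grown as a bulk culture, in which fewer cells of a type and less RNA per cell cannot be told apart.

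The proteasome is the protease complex that destroys proteins tagged with ubiquitin chains. Its barrel-shaped core is built from alpha rings, which gate the entrance, and beta rings, which hold the active sites. A regulatory particle caps the core: its base unfolds proteins with a ring of ATPases, and its lid removes the ubiquitin. Other activators can bind the core in place of that cap, and dedicated chaperones help to assemble it. In dividing epithelial cells the complex removes cyclins, short-lived transcription factors and damaged proteins.

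Levels are given as log2(intensity + 16), the median over a gene's probesets, and changes are differences on that scale, each with its standard error (SE) from a limma fit over all 21 arrays. A gene was called when its Benjamini-Hochberg adjusted p, taken over all 16614 genes, was under 0.05. Probesets differ in how brightly they bind, so the level of one gene was not set against that of another. Median intensities over all probesets, most of which carry no gene symbol, lay between 20.442 and 20.562 on the 21 arrays. The arrays were less even in gene signal: the median over genes ran from 6.62 on 0A to 6.77 on 120C. The number of arrays, 3 per time, limits the precision. The immediate response to EGF was seen in FOS, an AP-1 transcription factor gene, which rose by 4.31 ± 0.21 at 20 min (limma adjusted p = 1.12e-11). The basal keratin genes KRT5, KRT14 and KRT17 had mean levels of 12.45 ± 0.06, 11.40 ± 0.22 and 11.45 ± 0.10 at 480 min and of 12.47 ± 0.08, 11.37 ± 0.36 and 11.33 ± 0.20 at 0 min (SD, n = 3 each). The leukocyte marker PTPRC averaged 5.57 ± 0.08 at 480 min and 5.52 ± 0.23 at 0 min, near the filter level of 5.18.

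At 480 min 16 of the 40 measured genes were called higher and 0 lower, against 15.5% of all genes higher and 7.11% lower. The 16 were the core genes PSMA4, PSMA7, PSMB2 and PSMB3, the base genes PSMC1, PSMC2, PSMC4, PSMD1 and PSMD2, the lid genes PSMD3, PSMD7, PSMD11, PSMD12 and PSMD14, and the activator genes PSME3 and PSME4. Their changes lay between 0.38 and 0.86, which is 1.31-fold to 1.82-fold on the scale used. In all 16 the 3 arrays at 480 min lay above the 3 arrays at 0 min. Such separation is likely among genes called on the same arrays, and its share over all genes is not given here. The median change of the 40 genes was 0.39 at 480 min, against 0.05 for all genes tested. It was 0.23 with an index of array signal, described after the single genes, as a covariate. The 24 other genes changed by between -0.32 and 0.48 and did not pass the test.

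The count of called genes grew with time. At 20 min 0 of 40 were called in either direction by limma, against 0.897% of all genes higher and 0.0843% lower. An unadjusted limma p under 0.05 was found for 8 of the 40 and for 3324 of all 16614 genes, a like share. At 40 min 1 was called higher and 0 lower, against 1.82% and 0.415% of all genes. At 60 min 4 were called higher and 0 lower, against 4.82% and 0.975%. At 120 min 8 were called higher and 1 lower, against 11.2% and 3.21%, and at 240 min 12 were called higher and 0 lower, against 13.5% and 6.21%. The median change of the 40 genes was 0.08, 0.11, 0.16, 0.24, 0.23 and 0.39 at 20, 40, 60, 120, 240 and 480 min. The shares of proteasome genes called higher were 2.5, 10, 20, 30 and 40% from 40 min on. The 2.5% at 40 min was 1 gene, near the 1.82% of all genes. The gap to all genes was widest at 480 min. Of the 16 genes higher at 480 min, 1 was first called at 40 min, 3 at 60 min, 7 at 120 min, 3 at 240 min and 2 at 480 min, and 0 differed between 480 and 120 min by the test. All 6 comparisons share the arrays at 0 min.

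Counts at the intermediate times rested on few arrays. Without the array 60C the count at 60 min was 0. At 120 min the count was 2 without the array 120C, 4 without 120B and 17 without 120A, and at 240 min it was 4 without 240C. At 480 min it lay between 11 and 20 whichever array was left out, and 11 of the 16 genes were called in every one of the 21 refits. How many of all genes were called in the same refits is not given here. These swings therefore cannot be read as particular to the proteasome genes.

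**Figure D1:**
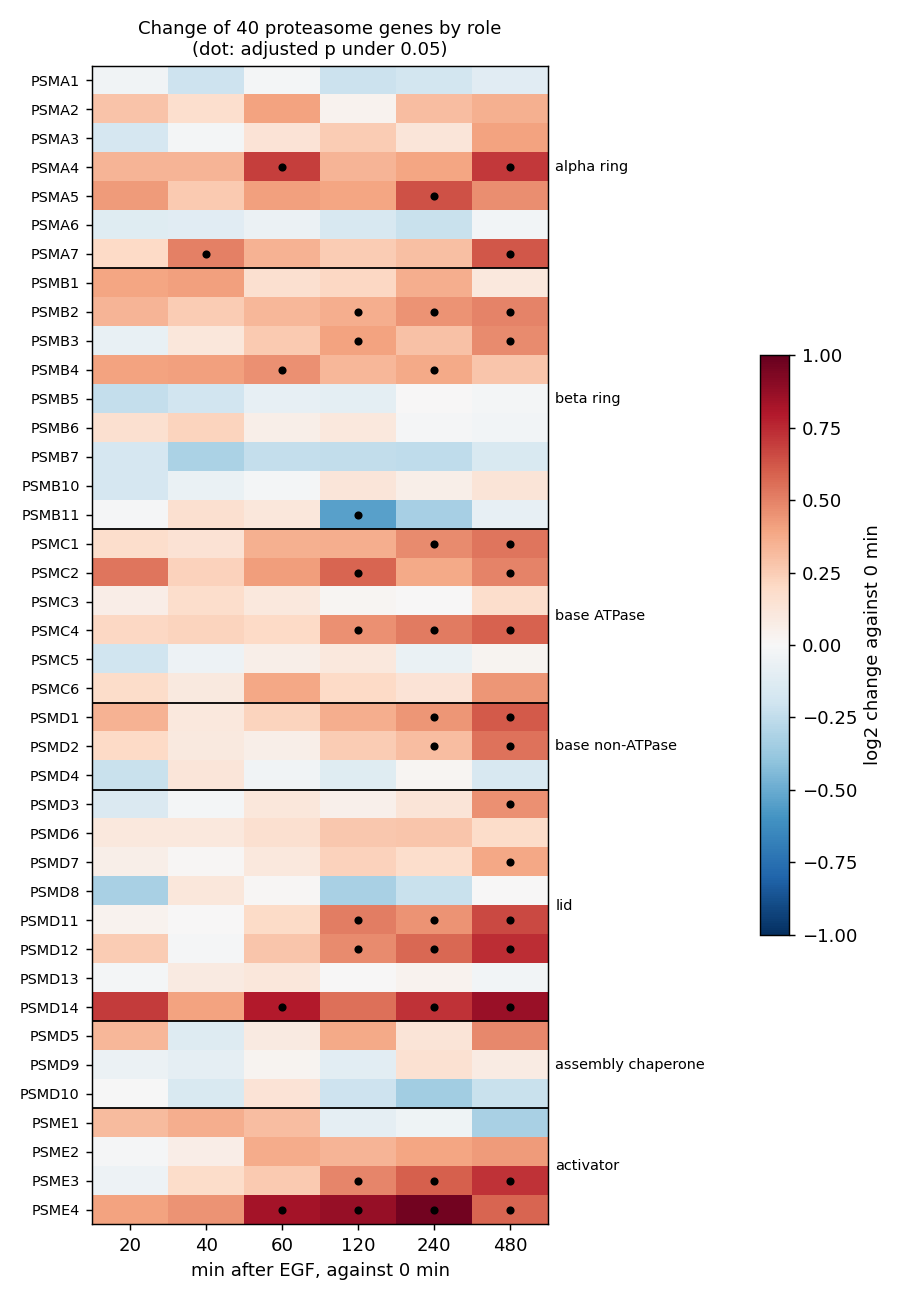
Change of each of the 40 measured proteasome genes (rows, grouped by role) at 20 to 480 min after EGF against 0 min (columns), with colour giving the log2 change from -1 (blue) to 1 (red) and a black dot marking adjusted p under 0.05 in limma. Dots gather in the last columns, with 16 genes marked at 480 min, and the lid holds 5 of them.

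Read over the 6 treated times together, the F-test of limma called 16 of 40 proteasome genes, against 27.5% of all genes. These 16 are not the same 16 as at 480 min: the F-test also called PSMB11 and PSME1, and it missed PSMC1 and PSMC2. Of the 16 genes the F-test called, 13 had their largest change at 480 min, 1 at 240 min, 1 at 120 min and 1 at 40 min. Between 480 and 20 min 9 proteasome genes were higher at 480 min and 1 lower, against 12.3% and 10.5% of all genes. Between 480 and 120 min 1 was higher at 480 min and 0 lower, against 2.55% and 4.12%.

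The start regions of some genes called higher at the last time, and of PSME1, which was not, are shown here for the short motifs they hold. The genes called higher did not share a time course: PSMD14 and PSME4 were first called at 60 min, and PSMB3 and PSMD12 at 120 min. Each window runs 5′ to 3′ on the gene's own strand, from 250 bases before the RefSeq start to 50 bases after it, on GRCh38.p14. Capitals mark matches, on either strand, to TGACNNNGC (the core motif of the NFE2L factors with their MAF partners), CCGGAAG (ETS family), CCAAT (NFY), CACGTG (E-box), GCGCATGC (NRF1) or TGACTCA (AP-1).
PSMB3, a core beta gene, at chr17:38752491-38752790 on the plus strand: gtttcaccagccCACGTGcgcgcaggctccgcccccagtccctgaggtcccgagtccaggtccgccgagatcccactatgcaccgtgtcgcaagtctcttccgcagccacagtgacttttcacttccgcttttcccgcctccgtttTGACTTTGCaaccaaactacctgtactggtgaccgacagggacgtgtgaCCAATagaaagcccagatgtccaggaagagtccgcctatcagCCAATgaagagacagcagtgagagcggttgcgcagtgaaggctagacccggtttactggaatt
PSMD12, a lid gene, at chr17:67366528-67366827 on the minus strand: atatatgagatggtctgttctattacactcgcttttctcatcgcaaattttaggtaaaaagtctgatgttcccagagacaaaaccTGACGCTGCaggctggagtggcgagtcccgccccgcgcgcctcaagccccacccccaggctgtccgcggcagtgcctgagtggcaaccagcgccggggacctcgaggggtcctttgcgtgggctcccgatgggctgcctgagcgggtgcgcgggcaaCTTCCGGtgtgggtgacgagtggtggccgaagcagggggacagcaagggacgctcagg
PSMD14, a lid gene, at chr2:161308175-161308474 on the plus strand: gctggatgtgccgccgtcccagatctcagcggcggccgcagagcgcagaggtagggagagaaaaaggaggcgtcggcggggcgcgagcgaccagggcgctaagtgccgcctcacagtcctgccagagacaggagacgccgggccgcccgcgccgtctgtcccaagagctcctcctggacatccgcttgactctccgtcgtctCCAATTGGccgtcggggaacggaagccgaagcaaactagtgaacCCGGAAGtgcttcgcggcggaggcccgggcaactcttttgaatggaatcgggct
PSME4, an activator gene, at chr2:53970944-53971243 on the minus strand: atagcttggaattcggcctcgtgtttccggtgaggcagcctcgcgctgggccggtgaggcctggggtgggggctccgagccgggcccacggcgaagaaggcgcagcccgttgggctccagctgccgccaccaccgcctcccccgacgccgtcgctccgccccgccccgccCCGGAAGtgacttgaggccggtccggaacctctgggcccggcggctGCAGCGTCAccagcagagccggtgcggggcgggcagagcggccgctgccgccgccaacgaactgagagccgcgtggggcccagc
PSME1, an activator gene, at chr14:24135944-24136243 on the plus strand: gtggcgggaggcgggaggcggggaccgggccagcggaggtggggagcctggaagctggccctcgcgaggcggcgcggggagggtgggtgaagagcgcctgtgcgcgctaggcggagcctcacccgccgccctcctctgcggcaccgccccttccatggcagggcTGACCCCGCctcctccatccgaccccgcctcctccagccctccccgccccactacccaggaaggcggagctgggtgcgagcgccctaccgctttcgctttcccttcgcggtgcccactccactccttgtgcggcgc

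In these windows PSMB3 held 1 CACGTG, 1 TGACNNNGC and 2 CCAAT matches. PSMD12 held TGACNNNGC and CCGGAAG, and PSMD14 held CCGGAAG and an overlapping pair of CCAAT matches on opposite strands. PSME4 held CCGGAAG and TGACNNNGC, and PSME1 held TGACNNNGC alone. Not every gene called higher had a match: the window of PSMD11, not shown, held none of these motifs. Windows were found for 36 of the 41 genes, 42 windows in all, and not for PSMA7, PSMB1, PSMB6, PSMB7 and PSMD4. CCGGAAG was in 13 of the 42 windows (31.0%), against 10.3% of all 35116 windows of the same length. TGACNNNGC was in 12 of them (28.6%), against 13.3%, and CCAAT in 18 (42.9%), against 34.6%. In the 18 windows of genes called higher at 480 min the shares were 33.3% for CCGGAAG, 38.9% for TGACNNNGC and 44.4% for CCAAT. In the 23 windows of the other measured genes they were 26.1%, 21.7% and 43.5%. CACGTG (7.14%, against 7.26%), GCGCATGC (7.14%, against 3.05%) and TGACTCA (7.14%, against 4.95%) were each in 3 of the 42. Some genes had several windows, which can overlap, and each window was counted. The windows with GCGCATGC were of PSMA2 and PSMA4, and overlapping windows of PSMA4 held the same site. TGACTCAGC, a longer word that contains TGACTCA and is a case of TGACNNNGC, was in 0 of the 42, against 0.561% of all windows. The windows of all genes include noncoding genes and were not matched in base composition, and a match is only a description of the letters.

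In the alpha rings, which form the gate of the core, 2 of the 7 measured genes (28.6%, against 15.5% of all genes) rose at 480 min and the other 5 changed by between -0.11 and 0.47 without passing. PSMA7 had 7.46, 7.27 and 7.40 on the 3 arrays at 0 min, 7.95, 7.46 and 7.31 at 20 min, 7.89, 7.85 and 7.88 at 40 min, 7.60, 7.72 and 7.83 at 60 min, 7.56, 7.69 and 7.62 at 120 min, 7.61, 7.71 and 7.72 at 240 min and 8.01, 7.96 and 8.02 at 480 min. The 3 arrays at 40 min and the 3 at 480 min lay close together and above every array at 0 min, and the change at 480 min was 0.62 ± 0.12 (limma adjusted p = 0.000737). PSMA7 was also the single proteasome gene called at 40 min, by 0.50 ± 0.12 (adjusted p = 0.03), a call lost when probesets were first centred on their own means (0.10, adjusted p = 0.685). At 20 min the array 20A stood above the other two. PSMA4 had 9.43, 8.90 and 9.36 at 480 min, against 8.77, 8.49 and 8.32 at 0 min. The groups did not overlap, and the change was 0.71 ± 0.17 (adjusted p = 0.00432). PSMA4 was called at 60 min as well, at 0.69 ± 0.17, though not with centred probesets (0.32, adjusted p = 0.119). PSMA5 was called at 240 min, at 0.64 ± 0.17, and at no other time.

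In the beta rings 2 of the 9 measured genes rose at 480 min (22.2%, near the 15.5% of all genes). They were PSMB2 and PSMB3. PSMB3 had 8.75, 8.65 and 8.52 at 0 min, 8.52, 8.39 and 8.78 at 20 min, 8.77, 8.81 and 8.68 at 40 min, 9.03, 8.73 and 8.95 at 60 min, 8.86, 9.10 and 9.18 at 120 min, 8.68, 8.96 and 9.17 at 240 min and 9.17, 8.98 and 9.19 at 480 min. From 120 min on most arrays stood above those at 0 min, with 240A the exception. The change at 480 min was 0.47 ± 0.13 (limma adjusted p = 0.012), and the call was lost without 0C (adjusted p = 0.0554) and without 480C (0.0544). PSMB2 was called at 120, 240 and 480 min, by 0.37 ± 0.11, 0.45 ± 0.11 and 0.49 ± 0.11. PSMB4 was called at 60 min by 0.46 ± 0.13 and at 240 min by 0.38 ± 0.13.

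The 3 genes of the constitutive active sites were not called at any time. They are PSMB5 (chymotrypsin-like), PSMB6 (caspase-like) and PSMB7 (trypsin-like). PSMB5 had 7.99, 7.76 and 7.71 at 480 min, against 8.03, 7.45 and 8.04 at 0 min, so the groups overlapped and the 95% interval of the change ran from -0.32 to 0.28. PSMB6 had 8.97, 8.88 and 8.72 at 480 min, against 8.97, 9.01 and 8.67 at 0 min, with an interval from -0.30 to 0.24. PSMB7 had 9.89, 9.96 and 9.93 at 480 min, against 10.24, 10.10 and 9.90 at 0 min, with an interval from -0.37 to 0.07. The value of PSMB7 depends on how its probesets are joined. Of its 11 kept probesets, 10 were higher at 480 min than at 0 min, and the change was 0.33 (adjusted p = 0.0048) when each probeset was first centred on its own mean and 0.24 (adjusted p = 0.0135) as a mean over probesets. PSMB11, a thymus form of a beta subunit, kept 3 of its 6 probesets, close to the filter. It was called lower at 120 min, where it had 5.62, 5.51 and 5.30, against 5.77, 6.17 and 6.13 at 0 min (change -0.55 ± 0.14, adjusted p = 0.00991). With centred probesets this call was lost (-0.15, adjusted p = 0.327). At 480 min it had 5.85, 5.94 and 6.04, higher than at 120 min by 0.47 ± 0.14 (adjusted p = 0.0475), and did not differ from 0 min by the test.

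In the base, 3 of the 6 ATPase genes and 2 of the 3 measured non-ATPase genes rose at 480 min, against 15.5% of all genes. PSMC4, an ATPase of the unfolding ring, had 8.51, 8.46 and 8.28 at 480 min, against 8.13, 7.85 and 7.50 at 0 min. The arrays at 0 min were the most spread, yet the groups did not overlap (change 0.59 ± 0.14, limma adjusted p = 0.00385). It was called from 120 min on, by 0.46 ± 0.14 at 120 min and 0.52 ± 0.14 at 240 min. PSMC1, the ATPase whose tail helps to open the core gate, had 9.08, 9.21 and 9.52 at 480 min, against 8.38, 8.80 and 9.01 at 0 min (change 0.54 ± 0.14, adjusted p = 0.00956). Its call was lost without 0A (adjusted p = 0.0776) and without 480C (0.077). PSMC2 changed by 0.49 ± 0.16 (adjusted p = 0.0325). Its call held in 17 of the 21 refits without 1 array and under 9 of the 11 alternative settings. PSMC3, PSMC5 and PSMC6 were not called, at 0.17 ± 0.12, 0.03 ± 0.11 and 0.44 ± 0.18.

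PSMD1 and PSMD2 encode the large scaffold proteins of the base. PSMD2 had 8.80, 8.93 and 8.77 at 0 min, 8.97, 9.14 and 8.97 at 20 min, 9.06, 8.73 and 9.0003 at 40 min, 8.89, 8.85 and 8.92 at 60 min, 9.06, 9.11 and 9.08 at 120 min, 9.16, 9.15 and 9.11 at 240 min and 9.33, 9.47 and 9.33 at 480 min. All 3 arrays at 480 min lay above every other array of the series, and the change was 0.55 ± 0.10 (limma adjusted p = 0.000288). Of its 39 kept probesets, 38 were higher at 480 min. PSMD1 had 9.59, 9.36 and 9.63 at 480 min, against 8.67, 9.01 and 9.07 at 0 min (change 0.61 ± 0.12, adjusted p = 0.00104), and all 29 of its kept probesets were higher. PSMD4, a ubiquitin receptor, changed by -0.16 ± 0.12 and was not called. PSMD4 was measured by 5 probesets, and 13 more, which the annotation shares with PIPSL, were left out.

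The lid had 5 of 8 measured genes higher at 480 min, against 15.5% of all genes. PSMD11, which clamps the lid to the core, had 8.73, 8.34 and 8.32 at 0 min, 8.48, 8.47 and 8.54 at 20 min, 8.57, 8.39 and 8.44 at 40 min, 8.63, 8.60 and 8.73 at 60 min, 8.73, 9.08 and 9.13 at 120 min, 8.74, 8.91 and 9.09 at 240 min and 9.10, 9.02 and 9.25 at 480 min. The values up to 40 min overlapped those at 0 min, and those at 480 min did not. The change was 0.52 ± 0.13 at 120 min, 0.45 ± 0.13 at 240 min and 0.66 ± 0.13 at 480 min (limma adjusted p = 0.000548 at 480 min). PSMD12, another lid scaffold, had 8.30, 7.97 and 8.27 at 0 min, 8.73, 8.34 and 8.26 at 20 min, 8.36, 8.01 and 8.15 at 40 min, 8.33, 8.44 and 8.62 at 60 min, 8.43, 8.81 and 8.73 at 120 min, 8.64, 8.71 and 8.94 at 240 min and 8.94, 8.80 and 9.02 at 480 min. All arrays from 120 min on were above those at 0 min, and the change at 480 min was 0.74 ± 0.14 (adjusted p = 0.000594).

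PSMD14, the enzyme that cuts ubiquitin chains from the substrate, had the largest change of the 40 genes at 480 min by the median of probeset levels, and its per-array values are given for that reason. With centred probesets its change was 0.53, below the 0.68 of PSME4, 0.64 of PSMD12, 0.62 of PSME3, 0.61 of PSMD11, 0.59 of PSMC4 and 0.55 of PSMD1. It had 8.94, 8.38 and 9.07 at 480 min, against 7.59, 8.01 and 8.20 at 0 min. The spread at 0 min was wide, but the groups did not overlap (change 0.86 ± 0.22, limma adjusted p = 0.00592). Of its 17 kept probesets, 14 were higher at 480 min. PSMD3 and PSMD7, the partner of PSMD14, changed by 0.46 ± 0.14 and 0.38 ± 0.10 at 480 min and were called at no earlier time. The call of PSMD3 held in 18 of the 21 refits without 1 array and under 10 of the 11 alternative settings. PSMD6, PSMD8 and PSMD13 were not called and changed by between -0.02 and 0.18. For PSMD8 10 of 13 kept probesets were higher at 480 min although the gene's value changed by 0.00 ± 0.22, and with centred probesets it was called higher, at 0.37 (adjusted p = 0.00243).

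The 3 assembly chaperones of the base were not called at any time. PSMD5 had 8.57, 7.96 and 8.65 at 480 min, against 8.11, 7.75 and 7.87 at 0 min, with 480B inside the range of 0 min (change 0.48 ± 0.19, limma adjusted p = 0.0798). It passed the test without 480B (adjusted p = 0.0111) and without 120A (0.0364). PSMD10, known as gankyrin, had 8.23, 7.78 and 8.30 at 480 min, against 8.25, 8.32 and 8.41 at 0 min (change -0.22 ± 0.14, adjusted p = 0.308). PSMD9 changed by 0.08 ± 0.10.

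Among the activators, which bind the core in place of the regulatory particle, 2 of 4 rose at 480 min, against 15.5% of all genes. PSME3, the nuclear PA28 gamma, had 8.74, 8.59 and 8.48 at 0 min, 8.56, 8.49 and 8.62 at 20 min, 8.98, 8.75 and 8.64 at 40 min, 8.87, 8.77 and 8.96 at 60 min, 8.84, 9.23 and 9.22 at 120 min, 9.07, 9.24 and 9.29 at 240 min and 9.46, 9.09 and 9.43 at 480 min. From 60 min on every array lay above those at 0 min, and the means grew at each later time. The change was 0.49 ± 0.13 at 120 min, 0.60 ± 0.13 at 240 min and 0.72 ± 0.13 at 480 min (limma adjusted p = 0.000239 at 480 min), the smallest adjusted p of the 40 genes.

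PSME4, which encodes the activator PA200, rose earlier. It had 7.86, 8.34 and 8.38 at 0 min, 8.68, 8.80 and 8.30 at 20 min, 8.92, 8.39 and 8.63 at 40 min, 8.94, 8.86 and 9.27 at 60 min, 8.94, 9.05 and 9.21 at 120 min, 9.08, 9.20 and 9.19 at 240 min and 8.79, 8.42 and 9.12 at 480 min. The array 0A was the lowest of all, and the 3 arrays at 480 min were widely spread. The change was 0.83 ± 0.18 at 60 min, 0.96 ± 0.18 at 240 min and 0.58 ± 0.18 at 480 min (limma adjusted p = 0.0226 at 480 min). The call at 480 min was lost without 0A (adjusted p = 0.135), 480A (0.0635) or 480C (0.159).

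PSME1 and PSME2 encode the partners of the PA28 alpha-beta ring, which is known for its induction by interferon. PSME1 was singled out after its values were seen. It had 7.36, 7.73 and 7.83 at 0 min, 8.12, 7.81 and 7.94 at 20 min, 7.94, 8.06 and 8.01 at 40 min, 8.24, 7.63 and 7.96 at 60 min, 7.19, 7.73 and 7.72 at 120 min, 7.30, 7.74 and 7.76 at 240 min and 7.27, 7.31 and 7.38 at 480 min. No change against 0 min passed the test, but the level at 480 min differed from that at 20 min by -0.64 ± 0.17 (limma adjusted p = 0.00843). All 3 arrays at 480 min lay below all 3 at 20, 40 and 60 min. With centred probesets the difference between 480 and 20 min was -0.28 (adjusted p = 0.0303). PSME2 changed by 0.42 ± 0.16 at 480 min (adjusted p = 0.0609).

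**Figure D2:**
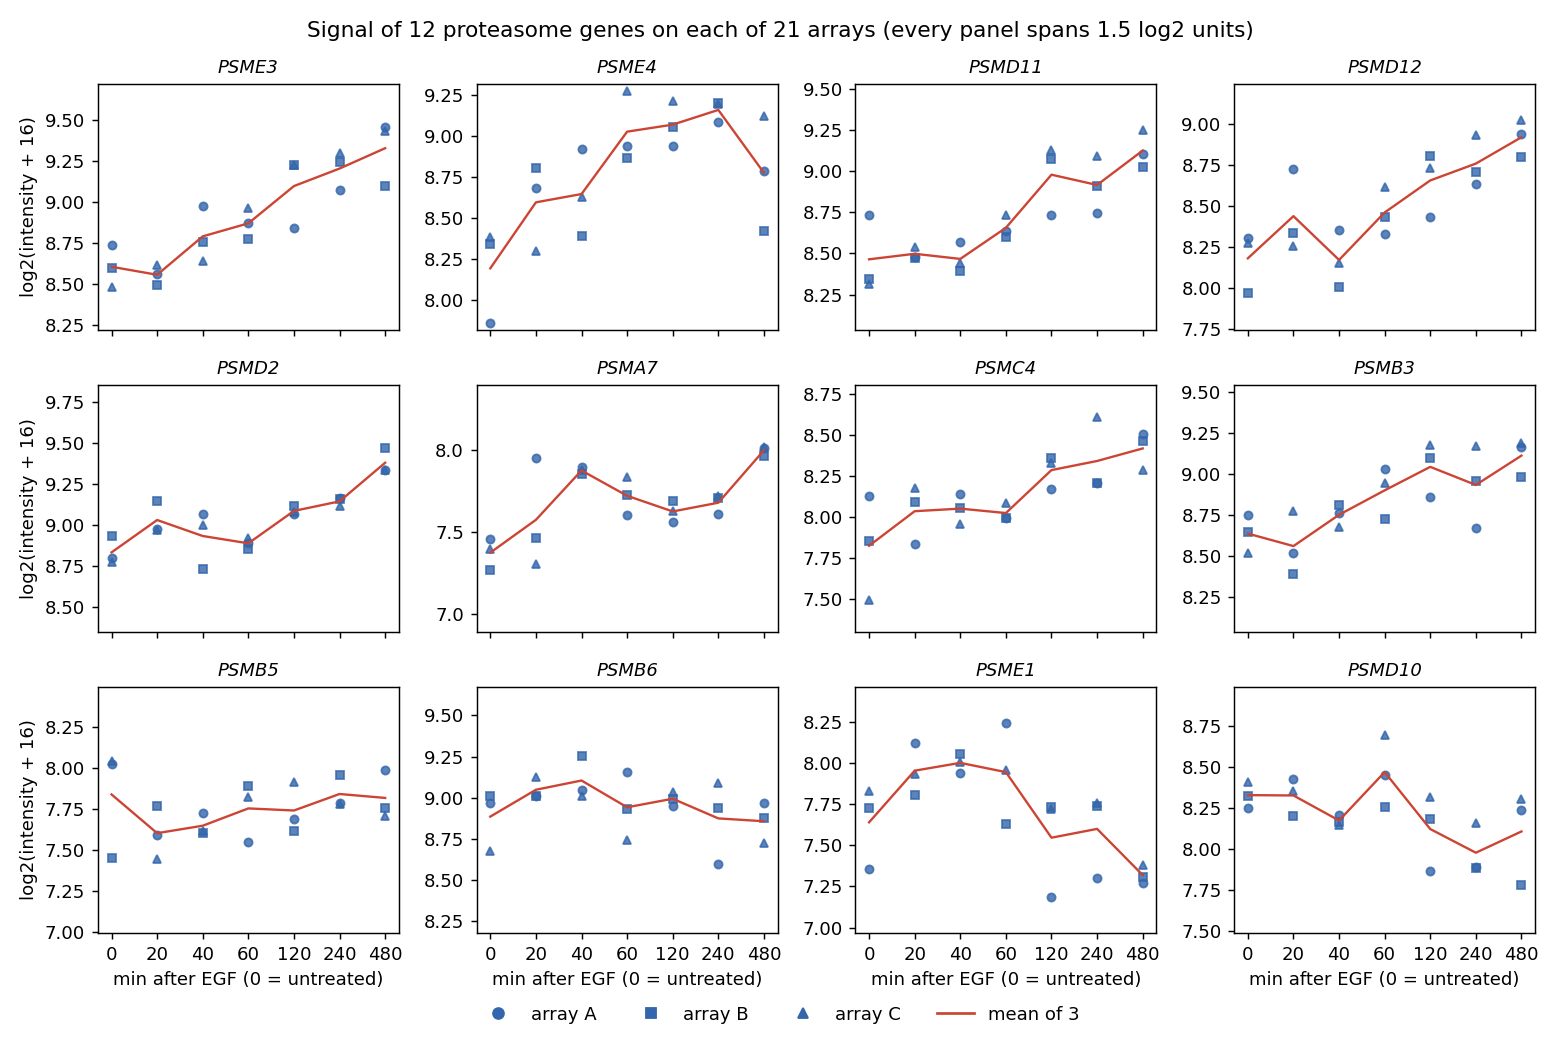
Level of 12 proteasome genes as log2(intensity + 16) on each array (vertical axis, 1.5 log2 units in every panel) at each time after EGF (horizontal axis, evenly spaced times), with symbols for the triplicates A, B and C and a line through their means. PSME3, PSMD11, PSMD12 and PSMD2 end above their level at 0 min, PSMB5 and PSMB6 do not, and PSME1 is lower at 480 min than at 20 min.

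The probesets behind the gene values were also compared one by one. Of the 665 kept probesets of the 40 measured genes and PSMA8, 525 (78.9%) had a higher mean at 480 min than at 0 min, against 143072 of 261183 kept single-gene probesets (54.8%). Probesets of a gene share its RNA and are not independent. When each probeset was centred on its own mean before the median was taken, a setting added after the data were seen, 21 genes were called higher and 1 lower at 480 min. The share of all genes called in that fit is not given here, so the 15.5% and 7.11% of the main fit are no measure for these counts. All 16 genes named above were among the 21, and the 5 added were PSMA3, PSMA5, PSMB7, PSMD8 and PSME2. The gene called lower was PSME1, at -0.28 (adjusted p = 0.0309). For 6 of the 16 the change was over 1.5 times smaller with centred probesets: it was 0.40 for PSMA4, 0.33 for PSMA7, 0.32 for PSMB2, 0.28 for PSMD3, 0.23 for PSMD7 and 0.53 for PSMD14. PSMA1 also differed between the summaries: its value changed by -0.11 ± 0.15, but 14 of its 17 kept probesets were higher at 480 min.

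**Figure D3:**
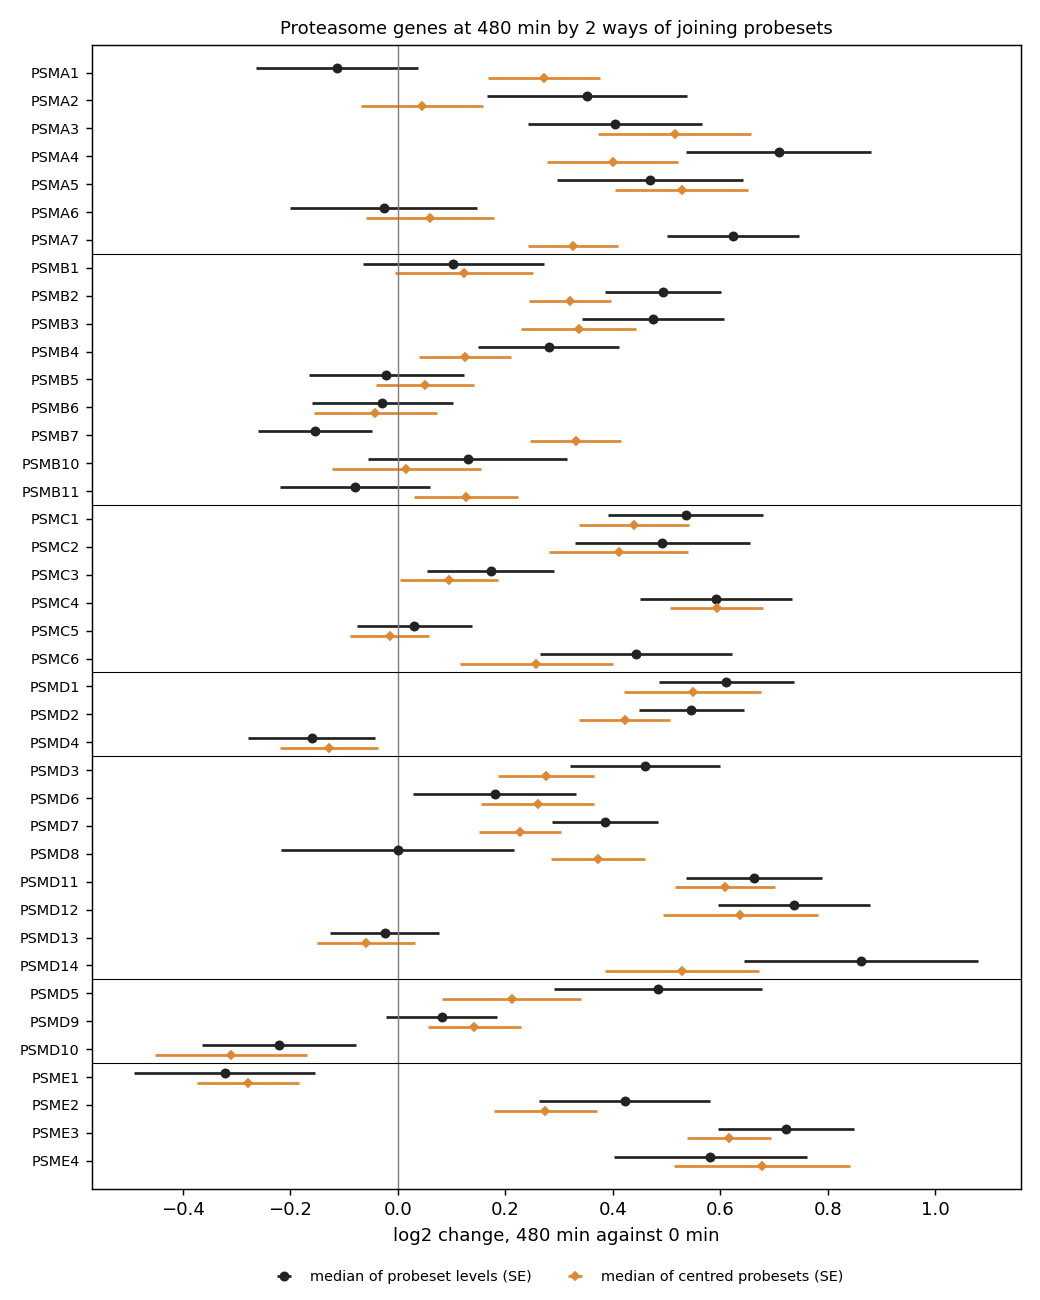
Change of each measured proteasome gene at 480 min against 0 min (horizontal axis, log2, bars are SE) by the median of probeset levels (black circles) and by the median of probesets centred on their own means (orange diamonds), with genes grouped by role from top to bottom. The values of PSMA1, PSMB7 and PSMD8 move most to the right with centred probesets, while PSMB5, PSMB6 and PSMD13 stay near 0.

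A property of the arrays moved with the proteasome signal. For each array an index was formed by taking the median log2 signal over probesets with 1 gene symbol and subtracting the median over probesets with none. This array index lay between 1.2117 and 1.4157. It averaged 1.31 ± 0.06 at 480 min and 1.24 ± 0.02 at 0 min (SD, n = 3 each). The mean at 0 min was the lowest of the 7 times, and those of the treated times lay between 1.27 at 40 min and 1.32 at 120 min. Every comparison against 0 min was thus also one between groups of unlike mean index. Within times, deviations of the index and of the mean level of the 40 genes had a correlation of 0.88. At 6 of the 7 times the array with the highest index also had the highest mean level of the 40 genes. With the index as a covariate, the median change of the 40 genes at 480 min was 0.23, and 14 of the 16 genes were still called higher. PSMC2 (adjusted p = 0.116) and PSME4 (0.0775) were lost, at 0.26 and 0.33, and PSMD14 changed by 0.53. PSMD10, at -0.40 (0.0163), and PSME1, at -0.48 (0.0291), were called lower in that fit. At 60 min 1 gene was then called, and at 120 min 2 were called higher and 2 lower. The shares of all genes called in the fit with the index are not given here. The origin of the index was not tested.

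**Figure D4:**
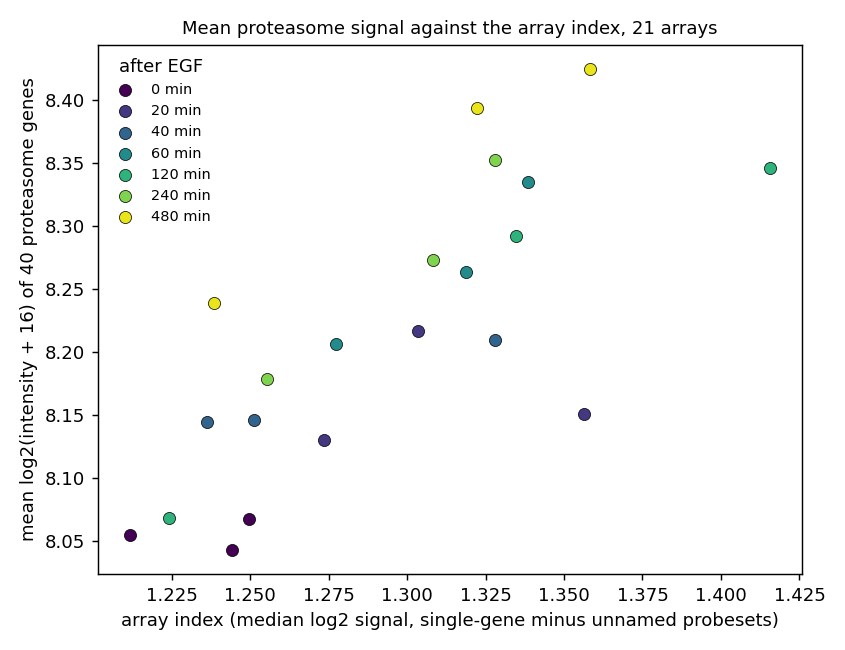
Mean log2(intensity + 16) of the 40 measured proteasome genes (vertical axis) against the array index (horizontal axis, log2 units) on the 21 arrays, coloured by time after EGF. Arrays with a higher index tend to have a higher proteasome signal, and the 3 arrays at 480 min lie above the arrays at 0 min.

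Genes that assemble, regulate or bind the proteasome were described from a list made apart from the subunits. At 480 min 7 of its 13 measured genes were called higher and 1 lower, against 15.5% and 7.11% of all genes, with a median change of 0.40. POMP, the maturation factor of the core, rose by 0.60 ± 0.11 (limma adjusted p = 0.000482). The ubiquitin-cutting enzymes UCHL5 and USP14, which dock on the regulatory particle, rose by 0.76 ± 0.17 and 0.75 ± 0.18, and UBE3C, a ligase that acts on the proteasome, by 0.51 ± 0.12. PSMG1, a chaperone of the alpha ring, ADRM1, a ubiquitin receptor, and ECPAS, a proteasome adaptor, rose by 0.41 ± 0.10, 0.36 ± 0.10 and 0.38 ± 0.12. PAAF1, which binds the base ATPases, fell by 0.60 ± 0.15 (adjusted p = 0.00579). AKIRIN2, which carries proteasomes into the nucleus, rose by 1.16 ± 0.23 at 120 min (adjusted p = 0.00141) and had a change of 0.61 ± 0.23 at 480 min that did not pass.

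Of the 7 measured immunoproteasome and interferon genes, 0 were called higher and 1 lower at 480 min, against 15.5% and 7.11% of all genes. PSMB8 and PSMB9, interferon-inducible beta genes, had changes of -0.37 ± 0.18 and -0.20 ± 0.13 that did not pass. PSMB10, which was kept among the 40 genes in the beta rings, changed by 0.130 ± 0.185 at 480 min and was not called. The gene called lower was IFIT1, at -1.31 ± 0.18 (limma adjusted p = 1.78e-05). Between 480 and 20 min, where PSME1 was lower, 3 of these 7 genes were lower at 480 min and 1 higher, against 10.5% and 12.3% of all genes. PSMB8 differed by -0.75 ± 0.18 (adjusted p = 0.00419), IRF1, an interferon response factor, by -0.49 ± 0.11 and IFIT1 by -1.23 ± 0.18, while ISG15 was higher by 0.56 ± 0.15. Of 8 genes for ubiquitin supply and delivery, 1 was higher (UBQLN1, a shuttle protein, at 0.49 ± 0.12) and 1 lower (UBB, a ubiquitin gene, at -0.66 ± 0.18, measured by 3 probesets), against 15.5% and 7.11% of all genes.

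Of 13 factors known to act on proteasome genes, 4 were called higher and 1 lower at 120 min, against 11.2% and 3.21% of all genes. At 240 min 7 were called higher and 2 lower, against 13.5% and 6.21%. The 7 were MAFF, MAFK, BACH1, DDI2, NGLY1, STAT3 and HSF1, and the 2 were NFE2L1 and MAF. At 480 min 2 were called higher and 2 lower, which is 15.4% in each direction, against 15.5% and 7.11% of all genes. NFE2L1, the factor that raises proteasome genes when the proteasome is blocked, had 8.95, 9.19 and 8.85 at 480 min, against 9.78, 9.53 and 9.58 at 0 min. All its 480 min arrays lay below all its 0 min arrays (change -0.64 ± 0.11, limma adjusted p = 0.00012). The small MAF gene MAFF, a partner of the NFE2L factors, rose by 1.57 ± 0.18 at 20 min and by 0.72 ± 0.18 at 480 min, and MAFK rose by 0.69 ± 0.12 at 120 min. NGLY1, an enzyme needed to activate NFE2L1, rose by 0.92 ± 0.21 at 240 min (adjusted p = 0.00341) and had a change of 0.48 ± 0.21 at 480 min that did not pass. HSF1 rose by 0.32 ± 0.09 at 480 min, and MAF fell by 0.997 ± 0.136 (adjusted p = 1.23e-05).

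For comparison, other large complexes were summarised in the same way. Of 72 measured cytoplasmic ribosomal protein genes, 5 were called higher and 3 lower at 480 min, with a median change of 0.06. Of 37 genes of respiratory complex I, 2 were called higher and 1 lower, with a median of -0.05. The shares called higher were 6.94% and 5.41%, below the 15.5% of all genes, against 40% of the proteasome genes. No test of these differences between lists was made.

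Markers of other cell types were checked beside these counts. Of all genes tested, 15.5% were called higher and 7.11% lower at 480 min. Of 6 luminal markers 2 were higher at 480 min (KRT18 at 0.75 ± 0.11 and FOXA1 at 0.43 ± 0.11) and 1 lower (GATA3 at -1.02 ± 0.10). Their mean level ranged from 7.35 to 7.54 at 480 min and from 7.32 to 7.62 at 0 min. Of 5 fibroblast markers 0 were higher and 1 lower (COL1A1 at -0.75 ± 0.12), with mean levels from 6.16 to 6.34 at 480 min and from 6.29 to 6.41 at 0 min. Of 3 immune markers 0 were called, with mean levels from 5.95 to 6.08 at 480 min and from 5.90 to 6.16 at 0 min. Of 5 basal markers 0 were called at 480 min, with mean levels from 10.89 to 11.06 at 480 min and from 10.77 to 11.00 at 0 min. The part of these markers in the proteasome changes was not tested.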

How the data were processed

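Gene expression was measured in MCF10A cells on 21 exon arrays, 3 at each of 7 times. The deposited table gives linear probeset intensities from the authors; PLIER and Affymetrix Expression Console 1.1 are named in the submitters' processing notes without a role, and the array's genome build is not given in the sources used here. Each deposited intensity was turned into log2(intensity + 16). Of 1384231 probesets, 354600 carried 1 gene symbol and were used, 14898 carried several and 1014733 none. Of 19497 symbols, 16426 were current in RefSeq, 2950 were updated and 121 kept as given. Probesets whose mean was below the median of all probesets (5.18) were left out, which kept 261183 (73.7%). Genes with at least 3 kept probesets were summarised by the median of these. The fit used limma 3.58.1 in R 4.3.3 (lmFit and eBayes, 14 residual degrees of freedom) with Benjamini-Hochberg adjustment over 16614 genes, and it was tested on simulated data. Genes named with values for each array were the 2 with the smallest F-test p in each role, PSMB5, PSMB6 and PSMB7, and any called lower; PSMD14 and PSME1 were added after their values were seen. The members, lists and tests were chosen with earlier results of these data known. Triplicates shared letters, but of 63 same-letter pairs of arrays at different times only 19 had deviations from their time means that correlated above 0.1, so the letters were not taken as pairs. The labels call the triplicates biological. In all, 10 alternatives, refits without each array and, added later, centred probesets were run.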

Additional observations from a re-analysis of the deposited data

Results flagged for a closer look

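For 11 differences between treated times, the change against 0 min at one time differed from that at another by the limma contrast between those times (adjusted p under 0.05). Higher at 480 than at 20 min were PSME3 by 0.77, PSMD11 by 0.63, PSMD3 by 0.60, PSMA3 by 0.57, PSMB3 by 0.55, PSMD12 by 0.48, PSMA7 by 0.42, PSMD2 by 0.35 and PSMD7 by 0.33. With centred probesets the difference was 0.38 for PSMA3 (limma adjusted p = 0.0512, so that its call was lost), 0.33 for PSMD3 and 0.34 for PSMB3, and the 6 other genes named here as higher moved by under 1.5 times. PSME1 was lower at 480 than at 20 min, at -0.64 (-0.28 with centred probesets). PSMB11 was higher at 480 than at 120 min by 0.47, a call lost with centred probesets. Groups of 3 arrays are too small for the check on single samples that stand apart.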

How the results depend on the processing

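Leaving out 1 array at a time gave 0 to 2 genes called at 20 min, 0 to 1 at 40 min, 0 to 5 at 60 min, 2 to 17 at 120 min, 4 to 13 at 240 min and 11 to 20 at 480 min. For 480 against 120 min the range was 0 to 2, for 480 against 20 min 6 to 12 and for the F-test 11 to 22, and the median change at 480 min lay between 0.32 and 0.45. With the array index as a covariate the counts were 1 at 60 min, 4 at 120 min and 5 for 480 against 120 min, and the median change at 480 min was 0.23. With the mean over probesets, and with centred probesets, a setting chosen after seeing the data, 0 genes were called at 40 min, 2 at 60 min and 0 for 480 against 120 min. The filter at the 75th percentile gave 0 at 40 min and 0 for 480 against 120 min, no filter gave 0 for 480 against 120 min, and a pseudocount of 64 gave 2 there. PSMB7 at 480 min turned to 0.24 with the mean over probesets and 0.33 with centred probesets. Under the replicate block, which joins arrays by letter, 17 genes were called at 480 min and 14 by the F-test. The sample titles do not say whether a letter marks a shared culture, so no conclusion is drawn from that fit. Quantile normalisation, median centring of arrays, a pseudocount of 1 and an intensity trend left every one of these counts within 1.5 times of the value reported. Of the 16 genes higher at 480 min, 13 were called under all 11 alternatives. Signal close to background limits PSMB11, and arrays number 3 per time. Shares of all genes called under these settings are not given here. The cause of these shifts was not tested.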
